A study of Mus musculus with 15 samples.

Results

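The genes described here are the cytochrome P450 genes of families 1, 2 and 3 in mouse liver. They were taken by name, as every row of the count table called Cyp1, Cyp2 or Cyp3 with a subfamily letter and a number, and kept where at least 3 of the 15 libraries held 10 or more counts. Of the 21702 genes in the table, 60 carry such a name. Cyp1a2, Cyp2e1 and Cyp2f2, the usual zonation markers among them, were left out by name, 14 had too few counts (7 of these had no count in any library), and 43 remained as members. They comprise 13 Cyp2c, 9 Cyp3a, 6 Cyp2d, 4 Cyp2a, 3 Cyp2b and 3 Cyp2j genes and the single genes Cyp1a1, Cyp1b1, Cyp2g1, Cyp2r1 and Cyp2u1. The member nearest the count minimum was Cyp1b1, with 10 or more counts in 3 libraries and at most 12. Just outside it lay Cyp2s1, with 10 or more counts in 2 libraries and also at most 12, and Cyp2d34, with 2 such libraries and at most 67.

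The livers came from 15 female wild-type mice in 5 groups of 3, given as C57BL/6 in the labels and as the substrain C57BL/6N in the study's methods. All mice received an adeno-associated virus of serotype AAV8 by tail vein, in which the hepatocyte promoter of thyroxine-binding globulin (TBG) drives either no gene (AAV8-null) or a mouse p21 cDNA (AAV8-p21), p21 being the inhibitor of cyclin-dependent kinases encoded by Cdkn1a. AAV8-null was given to a non-pregnant (NP) group and to mice sampled at 8 or 16 days post coitum (dpc), AAV8-p21 only to mice sampled on these 2 days of pregnancy. The study's methods give the mice as virgins of 8 to 14 weeks on entry, while its reporting summary states a wider age range. The pregnant ones had the virus before mating. RNA was taken from liver tissue, not sorted cells, and each library holds between 12280709 and 17615185 counts. In such bulk tissue, fewer cells of a type and less RNA per cell cannot be told apart. Cdkn1a, the gene the vector carries, lay at 59.8 to 127 CPM (counts relative to the size of the library) in AAV8-null livers at 16 dpc and at 815 to 1664 CPM in AAV8-p21 livers, and at 16.5 to 33.4 and 347 to 648 CPM at 8 dpc, so the groups did not overlap. With adjusted p = 0.0619 at 16 dpc and 0.0873 at 8 dpc in edgeR's quasi-likelihood test, the vectors were not called different. Under AAV8-null, Cdkn1a was called higher at 16 dpc than in NP, where it was 33.7, 5.12 and 3.29 CPM, at 2.58 on the log2 scale (adjusted p = 0.0358). The 8 hepatocyte markers (Alb, Ttr, Apoa1, Apoa2, Apob, Tat, Tdo2 and Fgb) were present in every library, and the 5 pancreas markers found in the table summed to at most 0.457 CPM, with Pnlip at 0.

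Cytochrome P450 enzymes are haem proteins of the endoplasmic reticulum that use electrons from the reductase encoded by Por to oxidise steroids, bile acids, fatty acids, vitamins, drugs and plant compounds. The mouse genome holds families 1 to 3 mainly as clusters of recently copied genes. In the liver many of them are controlled by nuclear receptors that sense foreign compounds, such as CAR (Nr1i3) and PXR (Nr1i2), or by the sex-dependent pattern of growth hormone, which makes several of them specific to females. The comparisons ask how these genes differ between pregnancy and no pregnancy, and between pregnant livers given the null or the p21 vector.

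How far single members can be told apart sets a limit on every value. Reads were 86 bases long and only uniquely mapped reads were counted, so a read from a stretch that 2 genes share is lost. Each member's longest coding transcript in GENCODE M21 was read in steps of 1 base as windows of 86 bases, and 11 of the 43 members had no window that also occurs in a transcript of another gene. The median member shared 3.35% of its windows, 19 members shared more than 5% and 8 more than 20%. Cyp3a41a and Cyp3a41b, whose coding sequences are 99.9% identical, shared 93.7% and 89.7%, so their counts come from a few distinguishing bases. Cyp2c40 (51.1%), Cyp2c69 (39.5%), Cyp2c67 (30.2%) and Cyp2c68 (23.8%) followed. The levels of these genes are lower bounds, and 26 members were more than 90% identical in coding sequence to their nearest relative among the members. In the same annotation the genes that overlapped members' exons were miRNA genes, pseudogenes and antisense RNAs, and 2 had an antisense RNA on the opposite strand (Cyp2a4 and Cyp2u1). The libraries were stranded, but the strand setting of the counting is not given in the sources used here, so antisense reads cannot be separated for those 2 genes.

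**Figure D1:**
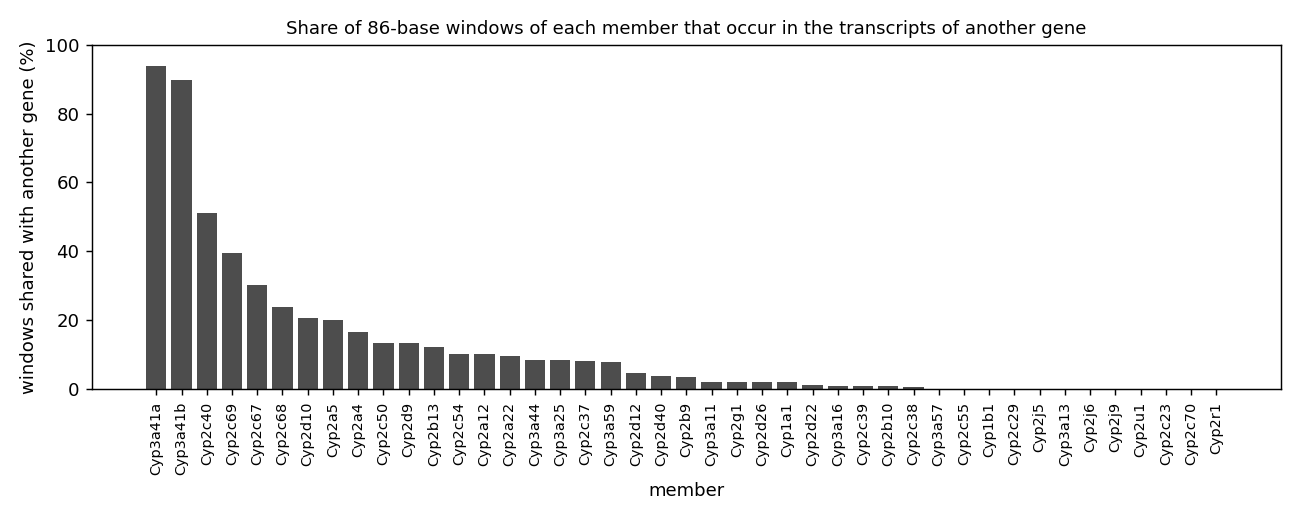
The bars give, for each of the 43 members on the horizontal axis, the percentage of 86-base windows that also occur in a transcript of another gene. Cyp3a41a and Cyp3a41b stand at 93.7% and 89.7%, and 11 members are at 0.

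Levels differed widely between members. Compared per kilobase of transcript, as the mean CPM of the 15 libraries divided by transcript length, Cyp3a11, the main adult Cyp3a enzyme and a PXR target, was highest at 868 CPM per kb. Cyp2a4, a testosterone hydroxylase, followed at 651, then Cyp2c69 at 595 and Cyp2d26 at 558 CPM per kb. Reads lost to shared windows were not made up for, and 39.5% of the windows of Cyp2c69 and 16.6% of those of Cyp2a4 are shared. Cyp3a11 and Cyp2d26 share 2.1% and 2.0%, so the order is that of uniquely mapped reads only. This order over all libraries was not that of every group, and the order within a group was not tested. By group means Cyp3a11 led in NP and at 8 dpc under AAV8-null, Cyp2c69 at 8 dpc under AAV8-p21 (998 beside 937 for Cyp3a11), and Cyp2a4 at 16 dpc under AAV8-null (725 beside 582) and AAV8-p21 (1396 beside 454 CPM per kb). In all, 20 members exceeded 100 CPM per kb and the median was 96.9. At the other end, Cyp2u1 (0.613), Cyp3a57 (0.296), Cyp1a1 (0.226) and Cyp1b1 (0.0838 CPM per kb) stayed below 1. Cyp1a1 had 1 to 16 counts per library and Cyp1b1 2 to 12, so both members that respond to the dioxin receptor AhR were close to the limit of this depth.

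CPM are scaled here with edgeR's TMM factors, and this choice matters for the pregnancy comparisons. Alb took 7.90% to 10.8% of the counts in the AAV8-null livers of NP and 8 dpc mice and 23.5% to 27.8% at 16 dpc, and the TMM factors were above 1 in the first 2 groups and 0.682 to 0.825 in the last. As a plain share of all counts, the 43 members made up 1.67% ± 0.0942 (SD, n = 3) in NP, 1.70% ± 0.327 at 8 dpc and 0.812% ± 0.186 at 16 dpc. With AAV8-p21 the share was 1.83% ± 0.122 at 8 dpc and 1.12% ± 0.404 at 16 dpc. On the TMM scale the members summed to 14155 ± 1328 CPM in NP, 14142 ± 2900 at 8 dpc and 11141 ± 3167 at 16 dpc, and to 15467 ± 332 and 14151 ± 5508 CPM with AAV8-p21. Without TMM factors, the median log2 fold change of all tested genes from NP to 16 dpc moved from −0.03 to −0.70, so the folds below are relative to the bulk of the transcriptome.

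Members also varied widely between mice of the same group, which limits the tests. In log2(CPM + 0.5), the median member ranged over 0.72 among the 3 NP livers, 0.80 at 8 dpc and 0.98 at 16 dpc under AAV8-null, where the median of all 12172 tested genes ranged over 0.56, 0.48 and 0.56. In AAV8-p21 livers it ranged over 0.63 at 8 dpc and 0.98 at 16 dpc, beside 0.50 and 0.51 for all genes.

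The widest was Cyp2c70, the enzyme that makes the muricholic bile acids of mice. It stood at 374, 62.3 and 166 CPM in the 3 NP livers, 575, 848 and 69.8 at 8 dpc and 877, 91.7 and 21.3 at 16 dpc. With AAV8-p21, its level was 1003, 788 and 620 CPM at 8 dpc and 1692, 1202 and 46.2 at 16 dpc. Livers of the same group thus differed by up to 41.2-fold, and no comparison of groups called it. Cyp3a16, a member first known from fetal liver, read 316, 26.5 and 26.6 CPM in NP and 523, 343 and 45.3 at 8 dpc, so 1 NP liver and 2 livers at 8 dpc were high and the others low.

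Libraries of a group also differed in clock genes. Arntl, an activator of the circadian clock, was 17.2, 1.71 and 1.40 CPM in the 3 NP livers and 24, 25.4 and 8.06 at 8 dpc. Dbp, a clock output factor, was 5.68, 86.3 and 58 CPM in NP and 3.43, 4.11 and 9.10 at 8 dpc. Arntl was 23.3, 10.2 and 19.8 CPM at 16 dpc under AAV8-null, while AAV8-p21 livers had 31.4, 21.4 and 2.45 CPM at 8 dpc and 0.511, 0.582 and 2.91 at 16 dpc. For the 3 clock activators (Arntl, Clock and Npas2) the median log2 fold change was 0.76 from NP to 16 dpc and −3.70 from AAV8-null to AAV8-p21 at 16 dpc, and none was called. For all 9 clock output factors (Dbp, Tef, Hlf, Nr1d1, Nr1d2, Per1, Per2, Per3 and Ciart), it was −1.48 and 1.38, also without a call. Cidec, a lipid droplet gene listed among the fat cell markers, reached 1.78, 217 and 71.3 CPM at 16 dpc under AAV8-null and 1.11, 1.96 and 161 CPM under AAV8-p21. The part of either in the members' spread was not tested.

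**Figure D2:**
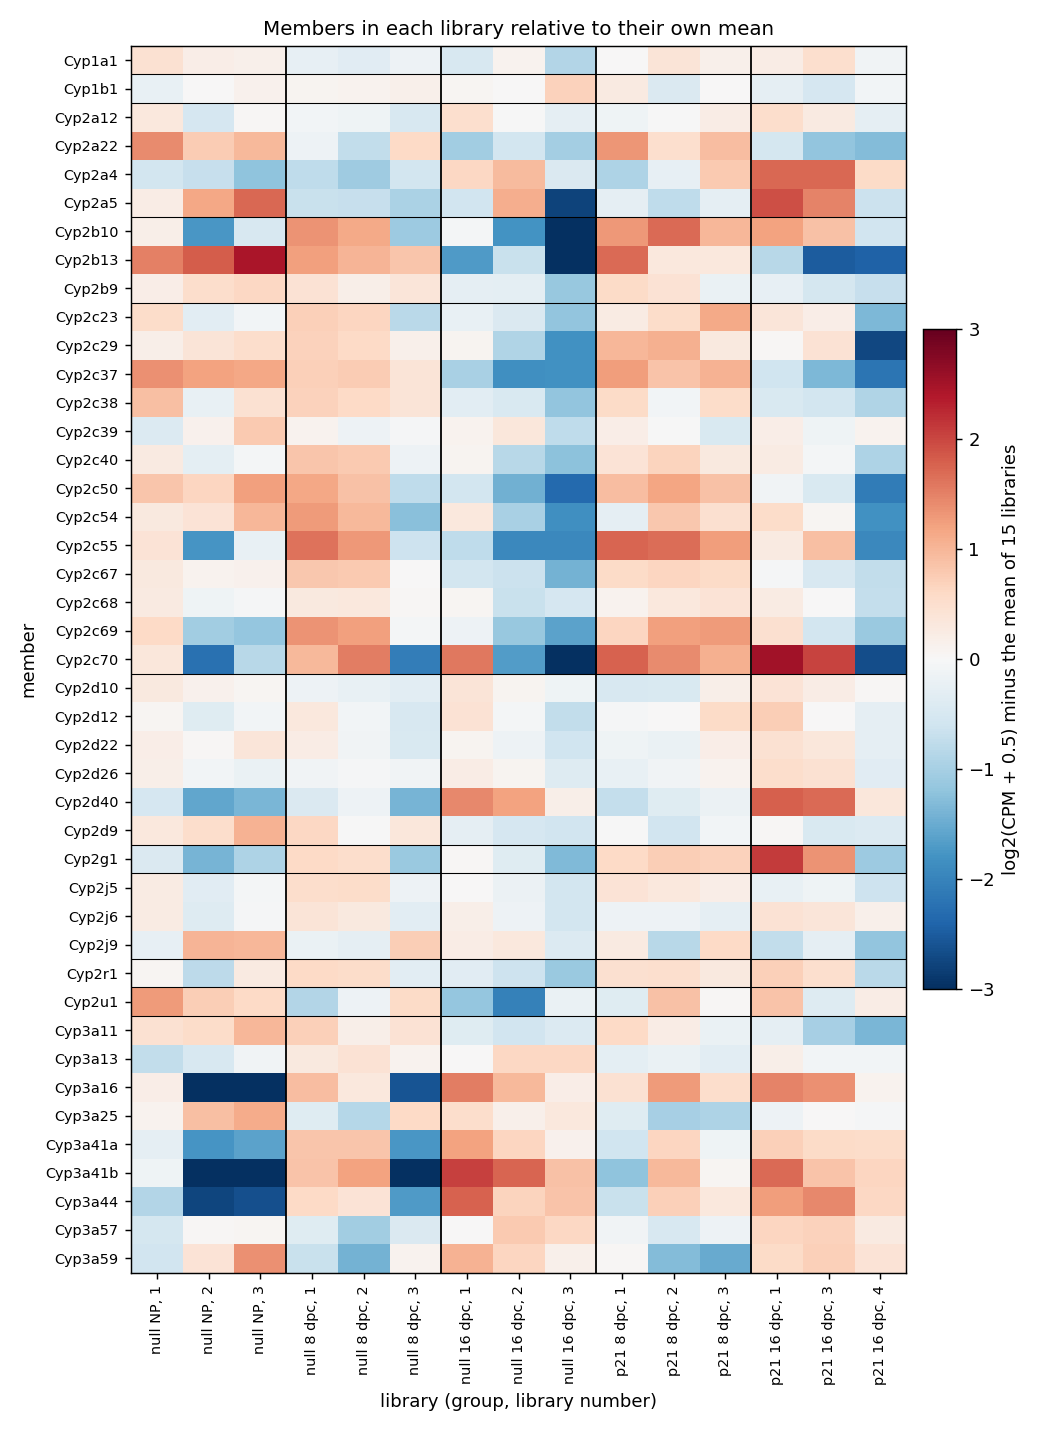
Each row is a member and each column a library, and the colour gives log2(CPM + 0.5) minus the member's mean over the 15 libraries, with values beyond 3 in either direction drawn at 3. Libraries of 1 group differ most in Cyp2c70, Cyp3a41b, Cyp2a5 and Cyp3a16, and Cyp2c37 and Cyp2b13 are below their mean in all 6 livers at 16 dpc.

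Late pregnancy was compared with no pregnancy under AAV8-null. Livers at 16 dpc had less mRNA of 10 members and more of 3. The largest falls were in Cyp2b13 (11.4-fold), Cyp2c37 (6.68-fold), Cyp2u1 (5.03-fold) and Cyp2c50 (4.57-fold), and the rises were in Cyp3a44 (8.0-fold), Cyp2d40 (4.35-fold) and Cyp3a13 (1.82-fold). A gene was called at a Benjamini-Hochberg adjusted p under 0.05 over all 12172 tested genes in edgeR's quasi-likelihood test, which every adjusted p below refers to, each fold being a log2 difference with its standard error (SE). Of the 42 members that passed the filter on low counts (all but Cyp1b1), 13 or 31.0% were called, where 6.52% of all tested genes were. Called and lower were 10 members beside 2.82% of all genes, and called and higher 3 beside 3.71%. The median log2 fold change was −0.49 over the 42 members and −0.03 over all genes. Scaled by total counts alone, 29 members were called, 26 lower and 3 higher, and the share of higher genes among all calls went from 56.8% to 3.79%.

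The number of members called rested on few mice. It came to 12 without NP library 1, 5 without NP library 2, 4 without NP library 3, and 11, 5 and 6 without 16 dpc library 1, 2 and 3. Cyp2c37, Cyp2b13 and Cyp2a22 were called in all of 10 other fits, and each of the other 10 members was not called in at least 2. These fits, the 10 alternatives in what follows, were DESeq2 size factors, no filter, DESeq2's Wald test, compared groups alone and each library left out. Total counts alone and the fits on the 12 numbered libraries were not among them. Every one of the 13 kept its sign in those 10 fits.

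**Figure D3:**
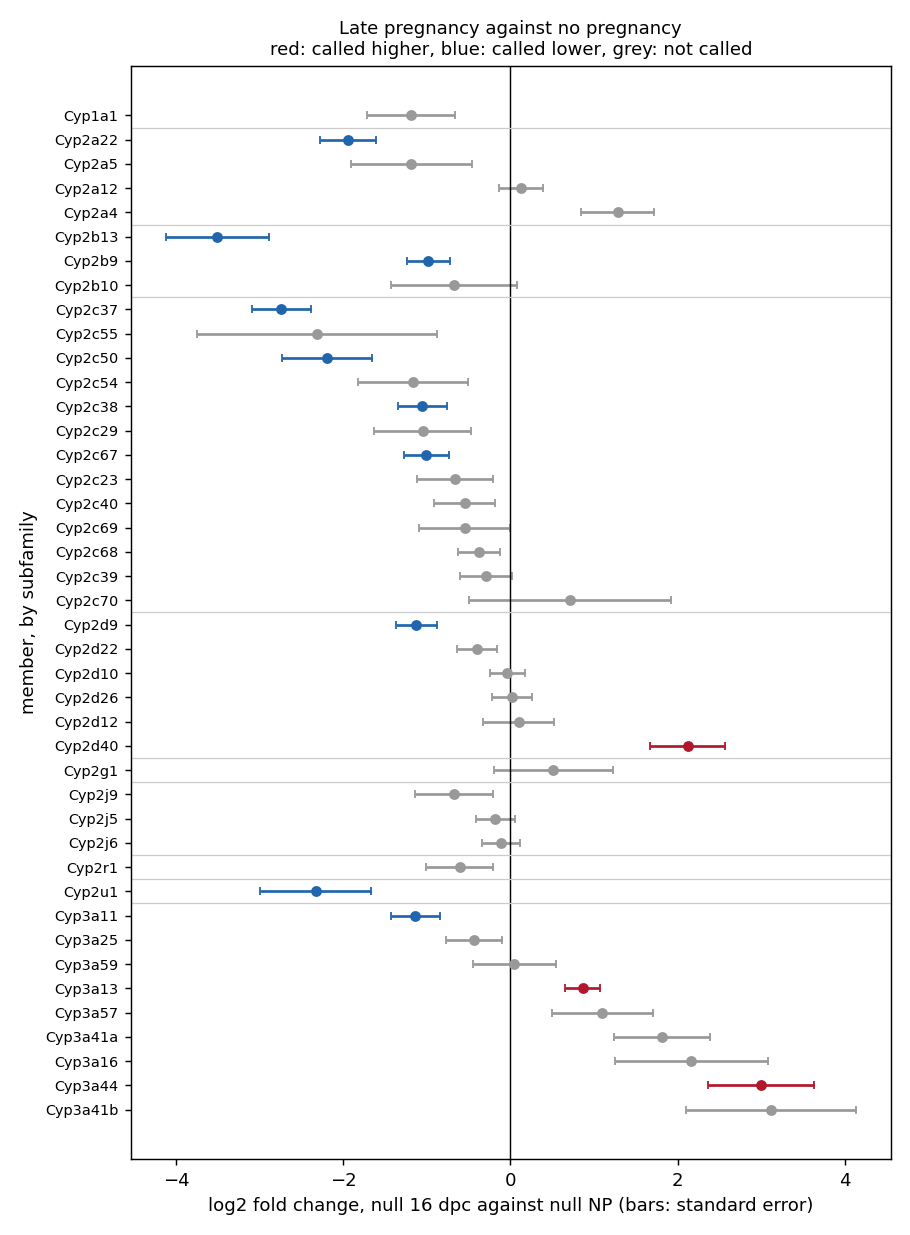
The points are log2 fold changes of the 42 tested members between 16 dpc and NP livers under AAV8-null, by subfamily, with standard errors as bars. Blue points (10) were called lower and red points (3) higher, and the 13 Cyp2c members lie from −2.74 to 0.72.

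The Cyp2c genes, which oxidise arachidonic acid, steroids and drugs, lie on chromosome 19 and gave 4 falls and no rise among 13. Cyp2c37 stood at 1078, 955 and 918 CPM in NP livers, 683, 697 and 537 at 8 dpc and 209, 115 and 117 at 16 dpc. With AAV8-p21 its levels were 992, 747 and 849 CPM at 8 dpc and 273, 163 and 90.6 at 16 dpc. All 6 livers at 16 dpc were below all 9 others. Between NP and 16 dpc under AAV8-null the log2 fold change was −2.74 (SE 0.35, adjusted p = 0.000407). Cyp2c50, its closest relative among the members at 96.1% of the coding sequence, was 489, 429 and 638 CPM in NP, 611, 506 and 162 at 8 dpc and 185, 101 and 54.2 at 16 dpc, with 1 liver at 8 dpc below the highest one at 16 dpc. Its log2 fold change from NP to 16 dpc was −2.19 (SE 0.54, adjusted p = 0.0269), with an adjusted p of up to 0.0979 in the alternatives. Cyp2c67 went from 229, 201 and 204 to 128, 119 and 69.7 CPM, a log2 fold change of −1.0 (SE 0.26, adjusted p = 0.0350), and Cyp2c38 from 208, 95.9 and 153 to 90.1, 81 and 49.2 CPM, at −1.05 (SE 0.29, adjusted p = 0.0437). Neither group pair overlapped, but the adjusted p reached 0.124 and 0.154 in the alternatives.

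The other Cyp2c genes passed no test in this comparison. Cyp2c29, an inducible enzyme that responds to CAR, was 766, 896 and 976 CPM in NP and 721, 363 and 193 at 16 dpc, without overlap, at −1.05 (SE 0.58, adjusted p = 0.323). Cyp2c54 was 175, 189 and 287 CPM in NP and 177, 73 and 39.9 at 16 dpc, with overlap. Cyp2c69, known as female-biased and the most abundant Cyp2c member by the mean of the 15 libraries, though below Cyp2c37 and Cyp2c29 in NP and Cyp2c70 at 16 dpc under AAV8-p21, was 1187, 378 and 349 CPM in NP, 1988, 1838 and 743 at 8 dpc and 703, 352 and 257 at 16 dpc. Cyp2c40, its close relative, was 297, 199 and 235 CPM in NP, 433, 419 and 220 at 8 dpc and 258, 138 and 104 at 16 dpc. All 3 livers at 8 dpc were above every liver at 16 dpc for Cyp2c69, and 2 of them were for Cyp2c40. Cyp2c55 had 29, 1 and 16 counts in NP and 7, 0 and 0 at 16 dpc, too few for a fold. Summed over the 13 genes, the Cyp2c subfamily reached 4764 ± 865 CPM (SD, n = 3) in NP, 5897 ± 2125 at 8 dpc and 2405 ± 1420 at 16 dpc. With AAV8-p21 these sums were 6973 ± 352 and 3768 ± 2181 CPM at 8 and 16 dpc.

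The 3 Cyp2b genes lie on chromosome 7, and 2 of them fell. Cyp2b13 was 181, 223 and 351 CPM in NP, 149, 129 and 113 at 8 dpc and 19.3, 39.9 and 7.30 at 16 dpc, at −3.51 (SE 0.62, adjusted p = 0.00380) from NP to 16 dpc. Cyp2b9 was 414, 519 and 557 CPM in NP, 487, 405 and 464 at 8 dpc and 299, 293 and 163 at 16 dpc, at −0.98 (SE 0.26, adjusted p = 0.0342), with an adjusted p of up to 0.117 in the alternatives. For both genes the 3 livers at 16 dpc lay below the 3 NP livers. Cyp2b10, the most inducible of them, was 18.3, 4.45 and 11.4 CPM in NP, 42, 36.3 and 7.33 at 8 dpc and 15.4, 4.33 and 1.60 at 16 dpc, so its groups overlapped and the log2 fold change was −0.67 (SE 0.75, adjusted p = 0.657). The summed Cyp2b level was 760 ± 154 CPM in NP and 281 ± 94.4 at 16 dpc.

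Cyp2b9 and Cyp2b13 are both known as female-specific in adult mice, and the stretch before their starts is nearly the same. The 250 bases before the RefSeq start of each gene are printed from GRCm38.p6, both on the plus strand, at chr7:26173159-26173408 for Cyp2b9 and chr7:26061245-26061494 for Cyp2b13, because the genes fell 1.98-fold and 11.4-fold. Capitals mark 3 words searched for in every member with a promoter entry. The first is TATAAA, the letters of a TATA box where they lie just before a start (plus strand). The others, searched on both strands, are AGGTCA, the core that many nuclear receptors bind, and CAAAGTCCA, a word bound by the hepatocyte factor HNF4. None of the marked words overlaps another in the windows printed.
Cyp2b9: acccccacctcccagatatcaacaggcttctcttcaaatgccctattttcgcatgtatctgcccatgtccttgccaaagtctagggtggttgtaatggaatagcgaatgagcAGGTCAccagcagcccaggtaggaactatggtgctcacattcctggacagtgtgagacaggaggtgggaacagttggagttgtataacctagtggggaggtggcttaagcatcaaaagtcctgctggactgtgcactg
Cyp2b13: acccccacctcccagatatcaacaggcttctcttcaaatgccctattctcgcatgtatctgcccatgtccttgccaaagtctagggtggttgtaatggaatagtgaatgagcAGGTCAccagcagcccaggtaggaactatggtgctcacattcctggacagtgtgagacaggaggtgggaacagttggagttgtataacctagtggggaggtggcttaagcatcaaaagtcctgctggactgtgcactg
The 2 stretches were 99.2% identical. AGGTCA began 138 bases before both starts, and neither held the other 2 words. In coding sequence the genes were 92.7% identical, and Cyp2b9 shared 3.35% of its 86-base windows with other genes and Cyp2b13 12.3%.

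The Cyp3a genes, whose enzymes oxidise steroids, bile acids and many drugs, moved in both directions, with 2 rises and 1 fall among 9. Cyp3a44, known as female-biased, was 205, 55.9 and 60.3 CPM in NP, 573, 500 and 117 at 8 dpc and 1290, 602 and 680 at 16 dpc, at 3.0 (SE 0.63, adjusted p = 0.0113) from NP to 16 dpc. Cyp3a13 was 161, 193 and 252 CPM in NP, 328, 361 and 290 at 8 dpc and 272, 416 and 416 at 16 dpc, at 0.87 (SE 0.21, adjusted p = 0.0242). Cyp3a11 was 2544, 2739 and 3704 CPM in NP, 3037, 2106 and 2517 at 8 dpc and 1447, 1250 and 1393 at 16 dpc, at −1.14 (SE 0.29, adjusted p = 0.0309). In all 3 genes the NP and 16 dpc livers did not overlap. The adjusted p reached 0.0584, 0.126 and 0.123 in the alternatives, so each lost its call in some.

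Further relatives of Cyp3a44 had higher values in every liver at 16 dpc than in any NP liver, but were not called by edgeR's quasi-likelihood test. Cyp3a16 was 797, 540 and 316 CPM at 16 dpc, at 2.16 (SE 0.91, adjusted p = 0.189) against NP. Its lowest liver at 16 dpc and its highest NP liver were nearly equal, at 316.3 and 316.0 CPM, so its groups barely separate. Cyp3a41a went from 36, 12.5 and 14 CPM in NP to 102, 68.9 and 48.1, at 1.81 (SE 0.58, adjusted p = 0.0796). Cyp3a41b went from 24.2, 2.25 and 2.73 to 113, 90.3 and 49.7 CPM, at 3.12 (SE 1.02, adjusted p = 0.0877), and most windows of both genes also occur in another gene. In all 3, NP library 1 had the highest NP value. With DESeq2's Wald test on all libraries, Cyp3a41a, Cyp3a41b and Cyp2a4 were called beside the 13 members named. The summed Cyp3a level was 4177 ± 714 CPM in NP, 4065 ± 733 at 8 dpc and 3849 ± 705 at 16 dpc, and 3676 ± 594 and 3322 ± 867 CPM under AAV8-p21.

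Along chromosome 5, from 145345279 to 146113287 (GRCm38), 8 of the 9 Cyp3a genes follow each other. In that order the log2 fold changes from NP to 16 dpc were 1.10 for Cyp3a57, 2.16 for Cyp3a16, 3.12 for Cyp3a41b, 1.81 for Cyp3a41a and 3.0 for Cyp3a44. Past Cyp3a44 they were −1.14 for Cyp3a11, −0.43 for Cyp3a25 and 0.05 for Cyp3a59. The 5 genes on 1 side thus had positive values, and Cyp3a11, directly after them, had a negative one. Of these 8 genes, only Cyp3a44 and Cyp3a11 were called. Cyp3a57 rested on 3 to 15 counts per library, and its groups overlapped. Cyp3a41a and Cyp3a41b share most of their windows, so they are hardly 2 separate values. Cyp3a13 lies apart, at chr5:137892932-137921619.

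The 250 bases before the starts of 4 of these neighbours, all on the minus strand, are printed 5′ to 3′ because Cyp3a44 rose, Cyp3a11 fell, and the other two were not called. They lie at chr5:145469724-145469973 for Cyp3a16, chr5:145720137-145720386 for Cyp3a41a, chr5:145805875-145806124 for Cyp3a44 and chr5:145879855-145880104 for Cyp3a11 (GRCm38.p6, RefSeq). Capitals mark the same 3 words.
Cyp3a16: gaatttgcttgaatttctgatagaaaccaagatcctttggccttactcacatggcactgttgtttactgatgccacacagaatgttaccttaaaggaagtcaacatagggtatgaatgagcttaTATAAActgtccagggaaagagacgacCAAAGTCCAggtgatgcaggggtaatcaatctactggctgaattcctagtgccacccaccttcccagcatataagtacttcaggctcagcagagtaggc
Cyp3a41a: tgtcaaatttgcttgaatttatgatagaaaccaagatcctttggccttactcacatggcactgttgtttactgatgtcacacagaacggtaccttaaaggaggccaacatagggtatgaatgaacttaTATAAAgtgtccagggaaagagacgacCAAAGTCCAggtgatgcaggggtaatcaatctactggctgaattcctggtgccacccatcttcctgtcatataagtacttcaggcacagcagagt
Cyp3a44: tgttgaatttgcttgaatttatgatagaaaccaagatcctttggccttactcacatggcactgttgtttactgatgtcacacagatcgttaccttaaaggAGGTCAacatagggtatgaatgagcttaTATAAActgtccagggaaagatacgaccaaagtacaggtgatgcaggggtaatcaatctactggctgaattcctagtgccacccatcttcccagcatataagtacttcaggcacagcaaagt
Cyp3a11: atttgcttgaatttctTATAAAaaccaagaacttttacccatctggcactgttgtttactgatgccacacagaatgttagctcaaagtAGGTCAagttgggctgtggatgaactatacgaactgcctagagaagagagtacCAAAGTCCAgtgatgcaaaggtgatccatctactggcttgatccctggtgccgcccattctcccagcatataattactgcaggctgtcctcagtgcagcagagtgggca
Cyp3a44 was 94.4% identical to Cyp3a41a, 94.4% to Cyp3a16 and 76% to Cyp3a11. The word CAAAGTCCA began 99 bases before the start of Cyp3a16, 95 before that of Cyp3a41a and 109 before that of Cyp3a11, and these letters are not in the window of Cyp3a44. TATAAA began 126 bases before the start of Cyp3a16, 122 before those of Cyp3a41a and Cyp3a44, and 234 before that of Cyp3a11, farther upstream than a TATA box lies, so the capitals there mark the letters alone. For Cyp3a11, GENCODE M21 begins the gene upstream of the RefSeq start, inside the printed window. AGGTCA occurred in Cyp3a44, 150 bases before the start, and in Cyp3a11, 162 bases before it.

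A promoter entry was found for 37 of the 43 members, the others being Cyp2c23, Cyp2c54, Cyp2d12, Cyp2d22, Cyp2g1 and Cyp2u1. CAAAGTCCA occurred in 9 of these 37, namely Cyp2c40, Cyp2c67, Cyp2c68, Cyp2c69, Cyp2c70, Cyp3a11, Cyp3a16, Cyp3a41a and Cyp3a41b, and in 0.384% of all 32851 promoters of the same length. As copies of common ancestors these 9 are not independent of each other. Their log2 fold changes from NP to 16 dpc ran from −1.14 to 3.12. TATAAA occurred in 14 of the 37 and in 7.59% of all, and AGGTCA in 11 and 14%. GTTAAT, one arm of the HNF1 site, occurred in 6 and 6.43%, and GCGTG, the core of the AhR site, in 5 and 28.2%. The spaced word TTCNNNGAA of the STAT proteins, which act after growth hormone and prolactin, occurred in none of the 37 windows and in 7.02% of all. The D-box words TTATGTAA and TTACGTAA, bound by Dbp, Tef and Hlf, also occurred in none, and in 0.932% of all. All these words were searched on both strands except TATAAA.

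Of the 4 Cyp2a genes on chromosome 7, 1 fell. Cyp2a22 was 216, 137 and 160 CPM in NP, 72.7, 48.8 and 122 at 8 dpc and 38.9, 55 and 40.0 at 16 dpc, at −1.94 (SE 0.34, adjusted p = 0.00340), and its NP livers lay above all 6 others under AAV8-null. Cyp2a4 was 615, 554 and 386 CPM in NP, 530, 428 and 614 at 8 dpc and 1379, 1737 and 666 at 16 dpc, without overlap between NP and 16 dpc, at 1.28 (SE 0.44, adjusted p = 0.104). Cyp2a5, the coumarin hydroxylase, was 479, 932 and 1357 CPM in NP, 259, 254 and 215 at 8 dpc and 279, 877 and 60.1 at 16 dpc, at −1.19 (SE 0.72, adjusted p = 0.372). The last 2 are 98.5% identical in coding sequence, and their log2 fold changes had opposite signs. Their windows before the start, at chr7:26306942-26307191 and chr7:26835089-26835338 on the plus strand, are printed because they too are nearly the same.
Cyp2a4: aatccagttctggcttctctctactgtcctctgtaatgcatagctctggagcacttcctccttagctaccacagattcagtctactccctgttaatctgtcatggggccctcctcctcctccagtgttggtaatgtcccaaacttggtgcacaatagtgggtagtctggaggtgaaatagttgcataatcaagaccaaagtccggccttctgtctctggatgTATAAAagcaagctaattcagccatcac
Cyp2a5: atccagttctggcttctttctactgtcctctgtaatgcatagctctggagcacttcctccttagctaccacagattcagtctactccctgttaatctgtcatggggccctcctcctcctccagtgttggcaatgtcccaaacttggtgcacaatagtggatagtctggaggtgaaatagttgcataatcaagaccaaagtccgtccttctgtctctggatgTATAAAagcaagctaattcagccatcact
They were 98% identical, with TATAAA 28 and 29 bases before the RefSeq start. For both genes GENCODE M21 begins the gene upstream of that start, inside the printed window.

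Among the 6 Cyp2d genes on chromosome 15, 1 rose and 1 fell. Cyp2d40 was 60.6, 28.9 and 32.8 CPM in NP, 63.5, 76.9 and 32.3 at 8 dpc and 236, 198 and 97.8 at 16 dpc, at 2.12 (SE 0.45, adjusted p = 0.0113). Cyp2d9, a testosterone hydroxylase known as male-specific, was 30.5, 35.6 and 51 CPM in NP, 38.1, 24.2 and 30.9 at 8 dpc and 20.3, 17.1 and 16.4 at 16 dpc, at −1.12 (SE 0.24, adjusted p = 0.0124). In both genes NP and 16 dpc livers did not overlap, and the adjusted p reached 0.0606 and 0.0637 in the alternatives. Cyp2d26, the most abundant of the subfamily, had 1058, 877 and 816 CPM in NP and 1082, 992 and 714 at 16 dpc and a log2 fold change of 0.02 (SE 0.24).

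Of the single genes and the Cyp2j genes, only Cyp2u1, a fatty acid hydroxylase, was called. It had few reads, with 88, 67 and 52 counts in NP and 8, 2 and 21 at 16 dpc, and the log2 fold change of −2.33 (SE 0.66, adjusted p = 0.0489) reached an adjusted p of 0.154 in the alternatives. Cyp2j5, an epoxygenase of arachidonic acid, was 560, 376 and 458 CPM in NP and 483, 422 and 325 at 16 dpc. Cyp2r1, the vitamin D hydroxylase of the liver, was 9.14, 4.87 and 10.6 CPM in NP and 6.86, 5.50 and 3.83 at 16 dpc. Cyp2g1, known from the olfactory mucosa, was 3.05, 1.34 and 2.03 CPM in NP and 4.46, 3.25 and 1.42 at 16 dpc. These 3 genes overlapped between the groups. Cyp1a1 was 0.970, 0.731 and 0.699 CPM in NP and 0.267, 0.667 and 0.0890 at 16 dpc. Cyp1b1 was 0.277, 0.426 and 0.489 CPM in NP and 0.446, 0.417 and 0.979 at 16 dpc.

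**Figure D4:**
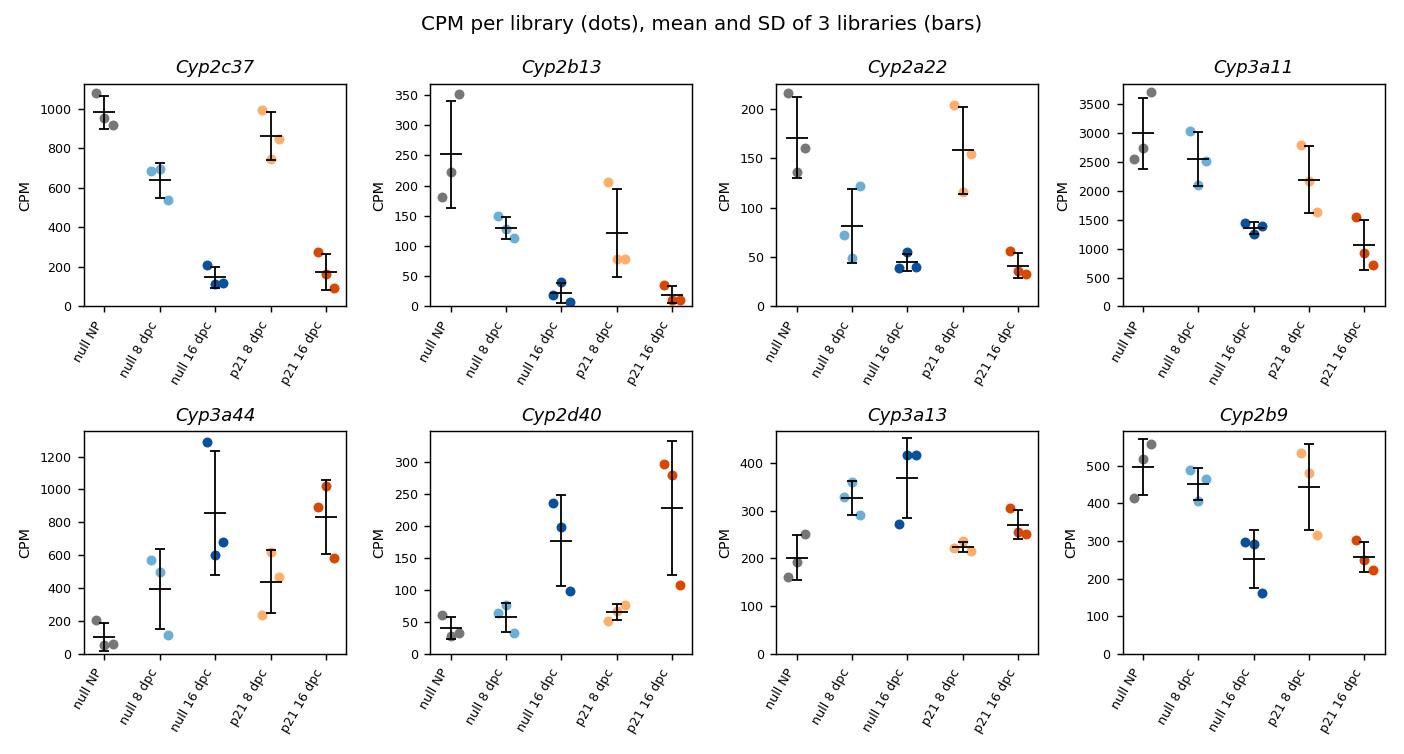
Dots are CPM in single livers for 8 called members, with the mean and SD of the 3 livers of each group as bars, and each panel has its own linear axis from 0. Cyp2c37 lies between 90.6 and 273 CPM in the 6 livers at 16 dpc and at 537 CPM or more in the others.

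The members were also counted by what is known to control them. Of 13 genes listed as responding to CAR or PXR, 12 are members and were tested, Cyp2b23 lying below the count minimum. Of the 12, 5 were called lower (Cyp2b9, Cyp2b13, Cyp2c37, Cyp2c50 and Cyp3a11) and 1 higher (Cyp3a13). Over all tested genes, 2.82% were called lower and 3.71% higher. The median log2 fold change of the 12 was −1.15 beside −0.03 for all genes. Of 9 female-biased members, Cyp3a44 was called higher and Cyp2b9 and Cyp2b13 lower, with a median of 1.28 beside −0.03 for all genes. That median is the value of Cyp2a4, which was not called. Cyp2a4, Cyp2b9 and Cyp2b13 stand in both lists. Cyp2d9, the single male-biased member listed, was called lower.

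Genes outside the family that act on it were also listed. From NP to 16 dpc none of 13 xenobiotic receptors and hepatocyte factors was called, with a median of −0.04. Nr1i3, which encodes CAR, was 279, 390 and 422 CPM in NP and 224, 159 and 117 at 16 dpc, at −1.13 (SE 0.34, adjusted p = 0.0648). In the growth hormone and prolactin axis, 4 of 9 genes were called, all higher. Prlr, the prolactin receptor, rose from 449, 217 and 249 to 3331, 3133 and 2134 CPM, at 3.23 (adjusted p = 8.53e-05), and Ghr, the growth hormone receptor, from 355, 283 and 383 to 4407, 3151 and 1909 CPM, at 3.21 (adjusted p = 0.000113). Their feedback inhibitors Socs2 and Cish rose by 1.77 and 2.05 on the log2 scale (adjusted p = 0.00304 and 0.00133).

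Of the 3 genes listed as AhR-responsive (Cyp1a1, Cyp1b1 and Cyp2s1, the last below the count minimum), only Cyp1a1 was tested, at −1.19 (SE 0.53, adjusted p = 0.211). Of the 10 CAR and PXR targets outside the family, Abcc3, an export pump of conjugates, was called lower, from 223, 348 and 354 to 14.7, 20.6 and 32.4 CPM at −3.77 (adjusted p = 0.000364). Of 5 AhR targets, 3 were tested and Tiparp rose from 4.22, 6.94 and 9.30 to 22.2, 30.5 and 34.7 CPM, at 2.09 (adjusted p = 0.00148). None of the 5 electron transfer partners was called, Por being 314, 725 and 777 CPM in NP and 476, 1023 and 536 at 16 dpc. Of 11 genes of haem synthesis and breakdown, Blvrb, a biliverdin reductase, was called lower at −0.93 (adjusted p = 0.0329), and the median was −0.09.

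Marker sums of other cell types, each over its whole list, stood as follows in NP and 16 dpc livers under AAV8-null. The 6 erythroid markers summed to 49.6 to 99.8 CPM and 109 to 170, the 6 bile duct markers to 19.9 to 31.4 and 8.41 to 17.5, and the 6 lymphocyte markers to 10.1 to 12.6 and 8.50 to 9.70 CPM. Kupffer cell and macrophage markers (8) summed to 325 to 427 and 217 to 349, liver endothelial markers (8) to 172 to 313 and 224 to 300, and stellate cell markers (8) to 214 to 224 and 222 to 297 CPM. The 8 hepatocyte markers, led by Alb, summed to 105783 to 125719 CPM in NP and 332531 to 461404 at 16 dpc. Among them Alb, Apoa1 and Fgb were called higher and Ttr lower, so the sum does not stand for each marker. The 5 fat cell markers summed to 7.13 to 19 and 8.65 to 226 CPM, with Lep at 0 in every library. The erythroid, bile duct, lymphocyte and hepatocyte sums did not overlap between the groups, and their part in the members' differences was not tested.

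Mid pregnancy was compared with no pregnancy next, with the same NP livers. At 8 dpc no member was called against NP, and 0.0% of all tested genes were. With the unadjusted p under 0.05 there were 8 members and 803 of all genes, and DESeq2's Wald test called 0 members and 73 genes. The 2 groups did not overlap in 8 members, 7 lower and 1 higher, where 10.2% of all genes did not overlap. The smallest unadjusted p values belonged to Cyp3a13, at 0.69 (SE 0.21, adjusted p = 0.394), Cyp2a22, at −1.08 (SE 0.33, adjusted p = 0.394), and Cyp3a44, at 1.89 (SE 0.60, adjusted p = 0.422). Lower without overlap were Cyp2a22, Cyp2a5, Cyp1a1, Cyp2d10, Cyp2c37, Cyp2u1 and Cyp2b13, and higher was Cyp3a13. The median log2 fold change of the 42 members was 0.08. Cyp2c37 was at −0.62 (SE 0.33, adjusted p = 0.849) and Cyp2b13 at −0.95 (SE 0.56, adjusted p = 0.921).

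Late was compared with mid pregnancy under AAV8-null, a comparison that shares its libraries with both above. From 8 to 16 dpc, 5 members fell and 2 rose, so 7 of 42 were called where 6.87% of all genes were, and the lower calls stood beside 3.71% of all genes and the higher ones beside 3.16%. Cyp2c37 was at −2.12 (SE 0.34, adjusted p = 0.00253), Cyp2c67 at −1.40 (SE 0.27, adjusted p = 0.00720), Cyp2b13 at −2.55 (SE 0.60, adjusted p = 0.0213), Cyp2c38 at −1.17 (SE 0.29, adjusted p = 0.0275) and Cyp2c50 at −1.91 (SE 0.54, adjusted p = 0.0471). Higher were Cyp2d40, at 1.62 (SE 0.44, adjusted p = 0.0397), and Cyp3a57, at 2.30 (SE 0.66, adjusted p = 0.0496), the latter on 0 to 15 counts per library. Apart from Cyp2c50, the livers of both stages did not overlap in these genes.

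Marker sums moved in this step as well. Liver endothelial markers summed to 125 to 175 CPM at 8 dpc and 224 to 300 at 16 dpc, with Pecam1 and Clec4g called higher, and stellate cell markers to 116 to 185 and 222 to 297 CPM, with Dcn called higher. The sums at 8 dpc were 18 to 26.8 CPM for bile duct, 10.8 to 13.5 for lymphocyte, 89.4 to 102 for erythroid and 87894 to 105678 for hepatocyte markers, and none of these 6 sums overlapped with 16 dpc. Against NP, the stellate cell and hepatocyte sums at 8 dpc did not overlap and were lower. The part of these cells in the members' values was not tested.

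The count of members called from 8 to 16 dpc was again sensitive to single mice, at 2 without 8 dpc library 1, 2 without 8 dpc library 2 and 3 each without 16 dpc library 2 or 3. Cyp2c37 alone was called in all 10 alternatives, and Cyp2c67 in 9. Cyp2c69 was not called, at −1.80 (SE 0.56, adjusted p = 0.0663), although its 3 livers at 16 dpc lay below the 3 at 8 dpc. Scaled by total counts alone, 23 members were called, all lower, and the share of higher genes among all calls went from 46.1% to 2.92%.

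The same step under AAV8-p21 used other mice. From 8 to 16 dpc in AAV8-p21 livers, 3 members fell and 1 rose, so 4 of 42 were called beside 3.32% of all genes, with 1.23% of all genes called lower and 2.09% higher. Cyp2c37 was at −2.30 (SE 0.34, adjusted p = 0.00198) and Cyp2b13, from 206, 79.2 and 79.2 to 35.2, 10.8 and 11.4 CPM, at −2.67 (SE 0.60, adjusted p = 0.0250). Cyp2d40 went from 51.8, 67 and 76.6 to 297, 279 and 108 CPM, at 1.81 (SE 0.44, adjusted p = 0.0371). Cyp2a22, which was not called under AAV8-null in this step, went from 204, 116 and 155 to 56, 35.6 and 32.7 CPM, at −1.93 (SE 0.34, adjusted p = 0.00582). In all 4 the stages did not overlap, and Cyp2c37 and Cyp2a22 were called in all 10 alternatives. Whether the step differed between the vectors is given with the interaction. The count was 2 without 8 dpc library 1 of this vector and 2 without 16 dpc library 3. The hepatocyte and endothelial sums did not overlap between these stages, the latter at 158 to 205 CPM at 8 dpc and 221 to 250 at 16 dpc, and their part was not tested. Scaled by total counts alone it was 16 members, 15 of them lower, and the share of higher genes among all calls went from 62.9% to 4.15%. Prlr and Ghr were called higher in this step too, at 2.12 and 3.27 (adjusted p = 0.00218 and 0.000160), and Abcc3 lower, at −1.96 (adjusted p = 0.0234).

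The effect of the p21 vector was compared at each stage. At 16 dpc no member was called between AAV8-p21 and AAV8-null, where 0.0739% of all genes were. At an unadjusted p under 0.05 there were 5 members and 1189 of all genes, and DESeq2's Wald test called 0 members and 135 genes. The median log2 fold change was 0.26 over the members and 0.00 over all genes. The vectors did not overlap in 1 member, Cyp3a25, which was lower, where 13.7% of all genes did not overlap.

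Bile duct markers summed to 8.41 to 17.5 CPM under AAV8-null and 19.7 to 43.1 CPM under AAV8-p21 at 16 dpc, and to 18 to 26.8 and 36.3 to 53.6 CPM at 8 dpc, without overlap at either stage. The hepatocyte sum, led by Alb, did not overlap either. It was 332531 to 461404 CPM under AAV8-null and 289176 to 324971 under AAV8-p21 at 16 dpc. At 8 dpc it was 87894 to 105678 and 118744 to 142788 CPM. It was thus lower under AAV8-p21 at 16 dpc and higher at 8 dpc. None of the 8 hepatocyte markers was called between the vectors at either stage. At 8 dpc the erythroid sum was 89.4 to 102 and 115 to 201 CPM and the stellate cell sum 116 to 185 and 204 to 268 CPM, also without overlap, and the part of these cells in the members' values was not tested.

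The smallest unadjusted p values at 16 dpc were those of Cyp2g1, Cyp2b10 and Cyp2u1. Cyp2g1 was 4.46, 3.25 and 1.42 CPM under AAV8-null and 20.2, 11.8 and 1.75 under AAV8-p21, at 1.88 (SE 0.68, adjusted p = 0.382). Cyp2b10 was 15.4, 4.33 and 1.60 CPM under AAV8-null and 38.2, 30.2 and 10.6 under AAV8-p21, at 1.89 (SE 0.76, adjusted p = 0.454). Cyp2u1 was 0.713, 0.167 and 1.87 CPM under AAV8-null and 4.43, 1.60 and 2.69 under AAV8-p21, at 1.66 (SE 0.67, adjusted p = 0.454). In each gene 1 or more AAV8-p21 livers lay within the range of AAV8-null. Cyp2a4 reached its own highest levels here, at 2961, 2975 and 1342 CPM, beside 1379, 1737 and 666 under AAV8-null, and its log2 fold change was 0.94 (SE 0.44, adjusted p = 0.509). Of the 13 members called between NP and 16 dpc under AAV8-null, Cyp2u1 had the largest log2 fold change between the vectors, and Cyp2c50 was at 0.60 (SE 0.52). The other 11 lay from −0.44 (SE 0.21) for Cyp3a13 to 0.44 (SE 0.26) for Cyp2c67, among them 0.25 (SE 0.33) for Cyp2c37, −0.22 (SE 0.57) for Cyp2b13, −0.11 (SE 0.33) for Cyp2a22 and −0.04 (SE 0.58) for Cyp3a44.

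At 8 dpc no member was called between the vectors either, where 0.0246% of all genes were. With an unadjusted p under 0.05 there were 3 members and 631 of all genes, and DESeq2's Wald test called 0 members and 29 genes. The groups did not overlap in 4 members, where 10% of all genes did not. These were Cyp3a13 and Cyp2d9, which were lower under AAV8-p21, and Cyp1a1 and Cyp2c37, which were higher. Cyp2a22 was 72.7, 48.8 and 122 CPM under AAV8-null and 204, 116 and 155 under AAV8-p21, at 0.96 (SE 0.33, adjusted p = 0.695). Cyp3a13 was 328, 361 and 290 CPM under AAV8-null and 221, 236 and 217 under AAV8-p21, at −0.54 (SE 0.21, adjusted p = 0.807). Cyp2d9 was 38.1, 24.2 and 30.9 CPM under AAV8-null and 24.1, 16.4 and 23.2 under AAV8-p21, at −0.55 (SE 0.24, adjusted p = 0.907). An exact two-sided permutation test of a single gene with 3 livers against 3 cannot go below p = 0.1, the value it gave for the 4 members without overlap.

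**Figure D5:**
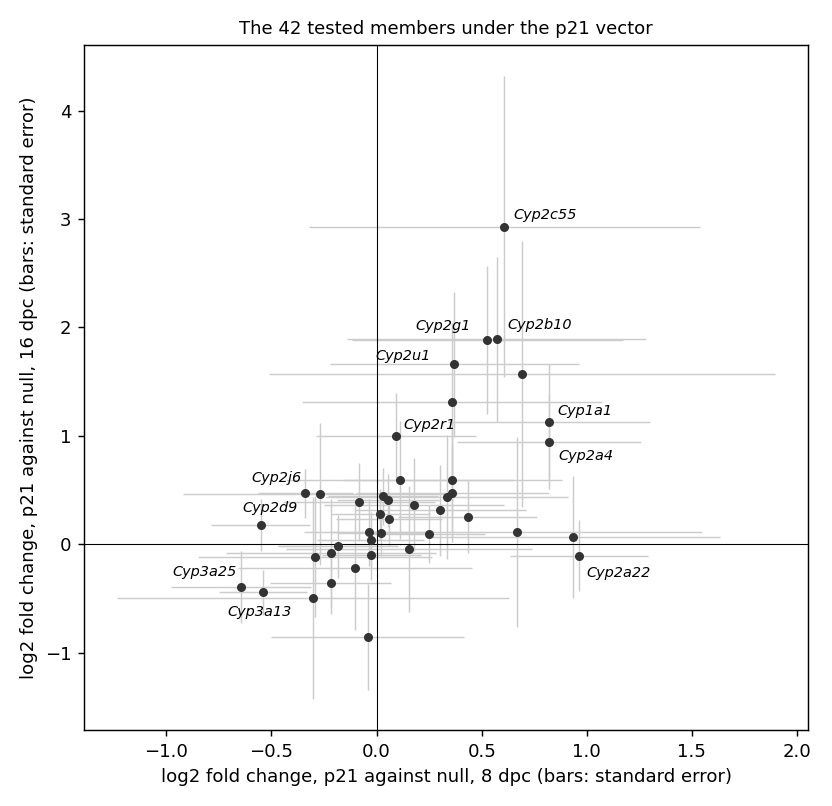
Each point is 1 of the 42 tested members, with the log2 fold change of AAV8-p21 against AAV8-null at 8 dpc on the horizontal axis and at 16 dpc on the vertical axis, bars being standard errors. No point was called on either axis, and the highest point, Cyp2c55, rests on 7, 0 and 0 counts under AAV8-null and 21, 42 and 0 under AAV8-p21 at 16 dpc.

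Whether the vector's effect differed between the stages was tested as an interaction. No member was called, and 0.0% of all genes were. With an unadjusted p under 0.05 there were 3 members and 376 of all genes, and DESeq2's Wald test called 0 members and 0 genes. The 3 members were Cyp2j6, at 0.81 (SE 0.32, adjusted p = 1.0), Cyp2a22, at −1.07 (SE 0.46, adjusted p = 1.0), and Cyp2d9, at 0.73 (SE 0.34, adjusted p = 1.0). Cyp2j6 was 78.7, 73.7 and 48 CPM at 8 dpc and 67.7, 54.2 and 41.2 at 16 dpc under AAV8-null. Under AAV8-p21 it was 54.2, 54.4 and 49.9 CPM at 8 dpc and 81.2, 78.2 and 66.6 at 16 dpc, without overlap of these stages. The median standard error of a member was 0.61 on the log2 scale in this test and 0.43 to 0.44 in the others.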

How the data were processed

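RNA sequencing was done on 15 mouse livers (5 groups of 3) from stranded mRNA libraries with single-end reads of 86 bases. According to the study's methods, the authors used cutadapt 1.14 for trimming, HISAT2 2.1.0 for alignment to mm10 (GENCODE M25) and HTSeq 0.12.4 for counting, which kept protein-coding genes and reads with a single best position. The authors deposited raw counts per gene, with no normalization. No library was pooled and no pair had identical counts.

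The counts were tested with edgeR 4.0.16 (R 4.3.3) in its quasi-likelihood test on all 15 libraries, with TMM factors and 1 mean per group, after a filter on low counts (minimum count 10), which left 12172 genes and 10 residual degrees of freedom. P-values were adjusted over these genes by the Benjamini-Hochberg method and called under 0.05. DESeq2, the package named in the study's methods, was an alternative (version 1.42.0 here), as were its size factors, no filter, the compared groups alone, a fold limit of 1 on the log2 scale, a replicate block and each library left out. The fold limit takes the call for 16 dpc against NP from Cyp3a13 and Cyp2b9, at 0.87 and −0.98. Total counts alone were added after seeing the data. The total counts of 12280709 to 17615185 limit genes of a few reads to large differences. In data simulated for 16 dpc against NP on 12026 genes, 20% of changes of 1 and 87% of changes of 2 on the log2 scale were recovered.

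The labels do not say whether the libraries of a group came from separate litters or cages, so p-values measure the spread between these samples. The columns of AAV8-p21 livers at 16 dpc are numbered 1, 3 and 4, beside 1 to 3 in the labels, and were used as replicates without a number. Members and lists were chosen with earlier results of these data known. Values per library were given for the top member of each subfamily, up to 10 called members with the largest and those with the smallest change at 16 dpc against NP, the first members of each other comparison, and the listed members. Cyp2c70, Cyp2d10, Cyp3a25, Cyp3a57 and Cyp3a59 were named after their values were seen. Gene positions and transcripts came from GENCODE M21, the promoters from RefSeq on GRCm38.p6.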

Additional observations from a re-analysis of the deposited data

How the results depend on the processing

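The number of members called changed by over 1.5 times in 3 comparisons. With total counts alone it was 29 for 16 dpc against NP, 23 for 16 against 8 dpc under AAV8-null and 16 under AAV8-p21. With the compared groups alone the AAV8-null counts were 8 and 3, in that order, and with DESeq2's Wald test the counts for 16 against 8 dpc were 13 under AAV8-null and 9 under AAV8-p21. Leaving out 1 library gave 4 to 12, 2 to 9 and 2 to 5 members in this order, and 0 in each of the other 4 comparisons. The cause was not tested, apart from the fewer libraries in those fits. The log2 fold changes of called members, and of the 3 members with the smallest p where none was called, were recomputed. The latter had no call to lose, so they are counted here among the values that stayed on their side of the threshold. Under the alternatives other than total counts, 345 values stayed on their side of the threshold and 82 lost the call, with total counts 33 and 3 did so, and none of these changed sign. Medians did with total counts, over the members from 0.03 to −0.53 for 16 against 8 dpc under AAV8-p21, and over all genes from 0.0049 to −0.70 for that step under AAV8-null, from −0.0065 to 0.024 for 8 dpc against NP and from −0.00023 to 0.11 for the vectors at 16 dpc. Directions of other members under the alternatives are not given here. The replicate numbers did not pair the libraries. Deviations of libraries with the same number had a mean correlation of 0.00588 over 18 pairs, from −0.576 to 0.472, beside −0.00701 over pairs with different numbers. On the 12 libraries whose column number matches the labels, the replicate block gave 10 called members for 16 dpc against NP, beside 11 without it, and 8 beside 7 for 16 against 8 dpc. Depth limits Cyp1a1, Cyp1b1, Cyp2u1, Cyp2c55 and Cyp3a57.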

Other observations

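The zonation markers outside the family were also listed, for NP against 16 dpc under AAV8-null. Of 10 pericentral markers, Slc1a2, a glutamate transporter, was called higher, and Lect2 and Notum, a Wnt inhibitor, were called lower by edgeR's quasi-likelihood test, with a median log2 fold change of −0.55 beside −0.03 for all genes. Of 10 periportal markers, Cyp17a1 and Aldh1b1 were called higher and Hal, Gls2 and Ass1, enzymes of amino acid and urea metabolism, lower, with a median of −0.40.

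The 3 genes of the family that were left out by name are given as values. Cyp1a2 was 466, 217 and 351 CPM in NP and 296, 157 and 80.6 at 16 dpc under AAV8-null, with 636, 519 and 87.5 CPM under AAV8-p21 at 16 dpc. Cyp2f2 was 455, 352 and 482 CPM in NP, 398, 127 and 97 at 16 dpc and 702, 464 and 94.9 under AAV8-p21 at 16 dpc. Cyp2e1 went from 6710, 8841 and 8983 CPM in NP to 4257, 4603 and 2292 at 16 dpc, at −1.14 on the log2 scale (adjusted p = 0.0288), without overlap.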
